A study of Mus musculus with 4 samples.

Results

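Nfat5 and 8 genes of the cellular response to hypertonicity, Slc5a3, Slc6a6, Slc6a12, Akr1b3, Aqp1, Slc38a2, Sgk1 and Slc12a2, were followed through RNA-seq libraries of a mouse podocyte line kept with or without added glucose. The 9 genes were taken by name from the 56393 genes of the deposited table, and 8 of them passed the minimum, a 4-library mean count of 50, as did 14187 genes in all. Slc6a12 did not pass.

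NFAT5, also called TonEBP, is a transcription factor that accumulates in the nucleus when the medium becomes hypertonic and binds tonicity-responsive enhancers (TonE) in its target genes. Its classic targets let cells build up organic osmolytes, small solutes that balance external tonicity without disturbing proteins as salt does. The kidney is where this response is best known, because cells of the medulla live in strongly hypertonic fluid. Added glucose raises both the glucose and the osmolality of a medium, and the sorbitol that aldose reductase makes from glucose is itself an osmolyte.

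The cells were MPC, a conditionally immortalised podocyte line grown at 33 °C in medium containing interferon-gamma (20 U/ml) and 10% serum and then differentiated at 37 °C for 7 days. Podocytes are the epithelial cells that cover the glomerular capillaries and form the filtration slits. The 4 groups were cells with a control hairpin (sh-NC), the same cells in high glucose (sh-NC/HG), cells with a hairpin against Jaml, which encodes a junctional adhesion molecule-like protein (sh-JAML), and those cells in high glucose (sh-JAML/HG). High glucose was D-glucose at a final 40 mmol/L, for 24 h by the design text of the series. No osmotic control, such as mannitol, is named in the labels, so an effect of glucose and an effect of osmolality cannot be told apart. Each group had 1 library, so no group has a spread between replicates, and any difference between hairpins or glucose levels cannot be told apart from a difference between single cultures.

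Total counts per library lay between 79330461 and 94341975, and 23148 to 23736 genes had a count above 0. Jaml itself had a count of 0 in all 4 libraries, so the knockdown could not be read from them. The floor used for low values, 3 fragments in a library, corresponds to 0.129 to 0.151 CPM (counts scaled to a common library size), depending on the library. Of the podocyte markers, Synpo lay between 172 and 246 CPM. Nphs1, which encodes the slit diaphragm protein nephrin, was close to absent, with counts of 35, 18, 18 and 17 for sh-NC, sh-NC/HG, sh-JAML and sh-JAML/HG. The 10 podocyte markers summed to 2655, 2713, 2310 and 2316 CPM in the same order. Of the 8 past the count minimum, 6 were lower in sh-JAML than in sh-NC (median log2 ratio -0.274), beside 7040 of all 14187 genes. In high glucose, 5 of the 8 were lower with the Jaml hairpin than with the control hairpin (median -0.329), beside 7055 of all genes. The 13 mitochondrially encoded mRNAs summed to 19780 CPM for sh-NC, 13420 for sh-NC/HG, 20540 for sh-JAML and 21210 for sh-JAML/HG, so sh-NC/HG stood apart. Levels below are CPM scaled between libraries by TMM, the trimmed mean of M values. Each ratio of 2 libraries is followed by its exact 95% interval, which covers counting error only and leaves out the variation between cultures. In such bulk libraries, fewer cells that express a gene and less of its RNA per cell cannot be told apart.

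The promoter stretches of 3 of the genes are shown because they stand for the cases that the levels below contrast: Slc5a3, lower in both high glucose libraries, Slc6a12, a classic NFAT5 target near 0 in all 4, and Aqp1, lower in 1 library. They are RefSeq sequences on build GRCm38.p6, plus strand, 5′ to 3′, and end just before the RefSeq start except for Slc5a3. There, the 52 bases before the start lie in an exon of Mrps6 and Gm49711 and were left out. The RefSeq start of Aqp1, position 55336299, lies upstream of the gene start that GENCODE gives, 55336432. Capitals mark a match to the TonE consensus, and where a stretch has none, no letters are in capitals.
Slc5a3, chr16:92058072-92058269: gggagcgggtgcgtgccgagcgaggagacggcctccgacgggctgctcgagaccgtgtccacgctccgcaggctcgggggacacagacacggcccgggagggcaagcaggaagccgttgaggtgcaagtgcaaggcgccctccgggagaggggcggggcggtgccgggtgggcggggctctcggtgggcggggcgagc
Slc6a12, chr6:121342324-121342573: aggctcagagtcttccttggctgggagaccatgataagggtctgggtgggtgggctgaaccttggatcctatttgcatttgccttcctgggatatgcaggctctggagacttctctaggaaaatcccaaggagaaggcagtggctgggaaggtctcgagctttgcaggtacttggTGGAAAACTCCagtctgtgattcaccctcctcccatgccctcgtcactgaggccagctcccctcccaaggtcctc
Aqp1, chr6:55336049-55336298: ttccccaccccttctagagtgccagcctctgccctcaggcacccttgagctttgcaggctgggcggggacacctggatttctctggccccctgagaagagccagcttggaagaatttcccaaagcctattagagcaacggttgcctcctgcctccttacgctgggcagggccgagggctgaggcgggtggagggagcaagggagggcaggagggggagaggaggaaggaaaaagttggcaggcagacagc
The NFAT5 binding core, TGGAAA, was searched on both strands in windows from 250 bases before to 50 bases after each start, together with the longer TonE consensus, which contains the core. The core was in 21.4% of all 32851 windows and the TonE consensus in 4.96%; counted by gene over any of its windows, the shares were 23.9% and 5.74%. Of the 9 genes, 6 had windows in the table. Slc6a12 held a TonE match, TGGAAAACTCC, in 1 of its 5 windows, where it begins 75 bases before the RefSeq start at position 121342574, upstream of the gene start that GENCODE gives. Sgk1 held the core in 2 of its 6 windows and no TonE match. The windows of Nfat5, Slc5a3, Aqp1 and Slc38a2 held neither, which says only that these letters are not in these windows. Sequence windows for Akr1b3, Slc6a6 and Slc12a2 were not used here.

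Nfat5 mRNA differed little between glucose levels and was slightly lower with the Jaml hairpin. Nfat5 (ENSMUSG00000003847, mm10 chr8:107293470-107379517) stood at 221 CPM for sh-NC, 221 for sh-NC/HG, 193 for sh-JAML and 188 for sh-JAML/HG. Both sh-JAML libraries were below both sh-NC libraries. The ratio of sh-NC/HG over sh-NC was 1.0-fold (0.963 to 1.04) and that of sh-JAML/HG over sh-JAML was 1.03-fold lower (0.981 to 1.07), so both intervals include no difference. Between hairpins the level was 1.14-fold lower in sh-JAML than in sh-NC (1.10 to 1.20) and 1.18-fold lower in sh-JAML/HG than in sh-NC/HG (1.13 to 1.23). NFAT5 is also controlled by its location and phosphorylation, which RNA counts do not show.

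Among the osmolyte genes, the myo-inositol transporter was lower in high glucose under both hairpins. Slc5a3 (ENSMUSG00000089774, chr16:92058322-92087473) encodes the sodium/myo-inositol cotransporter SMIT1 and is induced by hypertonicity through NFAT5. Its level was 44.8 CPM for sh-NC, 22 for sh-NC/HG, 42.0 for sh-JAML and 22.1 for sh-JAML/HG. Both high glucose libraries lay below both libraries without added glucose. The gene was 2.03-fold lower in sh-NC/HG than with sh-NC (1.82 to 2.27) and 1.90-fold lower in sh-JAML/HG than in sh-JAML (1.69 to 2.13). Between hairpins both intervals include no difference, with ratios of 1.07-fold lower (0.971 to 1.17) without added glucose and 1.0-fold (0.884 to 1.14) in high glucose. Slc5a3 shares 159 exon bases, 1.46% of its exons, with Mrps6 and Gm49711 on the same strand. Mrps6, a mitochondrial ribosomal protein gene, was at 45.6, 38.8, 39.4 and 32.9 CPM in the same order and thus 1.18-fold (1.07 to 1.29) and 1.20-fold (1.08 to 1.33) lower in high glucose. With the counts of both genes summed, the log2 ratios were -0.57 under each hairpin, compared with -1.02 in sh-NC and -0.92 in sh-JAML for Slc5a3 alone.

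The taurine transporter showed a smaller difference in the same direction. Slc6a6 (ENSMUSG00000030096, chr6:91684053-91759066) encodes the carrier that takes up taurine, an abundant intracellular osmolyte. Its level was 1469 CPM for sh-NC, 1068 for sh-NC/HG, 1326 for sh-JAML and 1017 for sh-JAML/HG. High glucose libraries were below both others, 1.38-fold lower under sh-NC (1.35 to 1.40) and 1.30-fold lower under sh-JAML (1.28 to 1.33). Slc6a12 (ENSMUSG00000030109, chr6:121343076-121365775), the betaine/GABA transporter BGT1, had counts of 0 for sh-NC, 16 for sh-NC/HG, 0 for sh-JAML and 0 for sh-JAML/HG. About 4 counts make up 1 sequenced fragment in this table, so the 16 counts are few fragments, and a difference was not detectable at this depth.

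Aldose reductase was higher in high glucose under the control hairpin and lower under the Jaml hairpin. Akr1b3 (ENSMUSG00000001642, chr6:34302434-34317478) encodes the mouse aldose reductase, the first enzyme of the polyol pathway, which reduces glucose to sorbitol. Its level was 163 CPM for sh-NC, 197 for sh-NC/HG, 166 for sh-JAML and 91.9 for sh-JAML/HG. Of the 4 libraries, the Jaml hairpin in high glucose gave the lowest level and sh-NC/HG the highest. The ratio was 1.21-fold higher in sh-NC/HG than with sh-NC (1.15 to 1.26) and 1.81-fold lower in sh-JAML/HG than in sh-JAML (1.71 to 1.91). Between hairpins, the gene was 1.02-fold higher in sh-JAML than in sh-NC (0.970 to 1.07) and 2.14-fold lower in sh-JAML/HG than in sh-NC/HG (2.03 to 2.26).

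The water channel gene Aqp1 was low in sh-JAML/HG alone. Aquaporin-1 lets water cross the membranes of proximal tubule and thin descending limb cells, many capillary endothelia and red cells, and hypertonicity raises it in cultured kidney cells. Aqp1 (ENSMUSG00000004655, chr6:55336432-55348555) stood at 292.5 CPM for sh-NC, 294 for sh-NC/HG, 280.3 for sh-JAML and 94.9 for sh-JAML/HG, from counts of 23267, 27414, 22494 and 8030. The first 3 libraries lay close together, and sh-JAML/HG was below all of them. High glucose left it at 1.0-fold under the control hairpin (0.970 to 1.04), while it was 2.95-fold lower in sh-JAML/HG than in sh-JAML (2.81 to 3.11). That ratio was number 84 from the lowest of 14187 genes. Against sh-NC/HG it was 3.09-fold lower (2.94 to 3.25), and without added glucose sh-JAML was 1.04-fold lower than sh-NC (1.01 to 1.08).

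Markers of other cells that carry Aqp1 were read beside it. The 10 tubule markers summed to 1056 CPM for sh-NC, 1336 for sh-NC/HG, 1079 for sh-JAML and 853 for sh-JAML/HG, mostly from Cdh16, Lrp2 and Pax8, while Slc34a1 and Umod were at 0 in all 4 libraries. Of the 5 measured, 4 were lower in sh-JAML/HG than in sh-JAML, beside 7106 of all 14187 genes. Among these 4 markers were Cdh16, a tubular cadherin, at 1.43-fold lower (1.39 to 1.46) and Lrp2, the endocytic receptor megalin, at 1.17-fold lower (1.13 to 1.22). The remaining marker, Cubn, was higher in sh-JAML/HG than in sh-JAML, with a log2 ratio of 0.285. The part of tubule marker expression in the Aqp1 result was not tested. The 7 endothelial markers summed to 1.27, 4.42, 1.84 and 1.05 CPM in the same order, and Kdr was at 0 in all 4 libraries. Only 1 of the 7 passed the count minimum. That marker was at least 2-fold higher in sh-NC/HG than with sh-NC, and at least 2-fold lower in sh-JAML/HG than in sh-NC/HG. The 12 red cell markers summed to 44.6, 7.12, 48.0 and 5.54 CPM, low in both high glucose libraries, and Slc4a1 was at 0 in all 4. Of the 5 past the count minimum, 4 were at least 2-fold lower in high glucose under each hairpin. The shares of all genes were 3.27% under the control hairpin and 1.56% under the Jaml hairpin. The part of red cell RNA in the Aqp1 values was not tested. The 5 mesangial markers summed to between 129 and 150 CPM and the 5 leukocyte markers to between 3.1 and 4.53 CPM. Single mesangial markers differed more than their sum. Their log2 ratios reached 2.325 in sh-NC/HG over sh-NC and -3.45 in sh-JAML/HG over sh-NC/HG.

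The last 3 genes act in amino acid and ion transport. Slc38a2 (ENSMUSG00000022462, chr15:96687392-96699730) encodes the neutral amino acid transporter SNAT2, which is induced by hypertonicity and by amino acid shortage. It stood at 821 CPM for sh-NC, 743 for sh-NC/HG, 819 for sh-JAML and 619 for sh-JAML/HG. Both high glucose libraries were lower, by 1.10-fold under sh-NC (1.08 to 1.13) and by 1.32-fold under sh-JAML (1.29 to 1.35). Sgk1 (ENSMUSG00000019970, chr10:21882184-21999903), a kinase that stimulates sodium transport and is itself induced by glucocorticoids and cell shrinkage, was at 26.4 CPM for sh-NC, 8.94 for sh-NC/HG, 19.6 for sh-JAML and 19.3 for sh-JAML/HG. Here sh-NC/HG was the low library. Sgk1 was 2.95-fold lower in sh-NC/HG than with sh-NC (2.52 to 3.49) and 1.02-fold lower in sh-JAML/HG than in sh-JAML (0.884 to 1.17). It was 1.34-fold lower in sh-JAML than in sh-NC (1.18 to 1.54) and 2.16-fold higher in sh-JAML/HG than in sh-NC/HG (1.83 to 2.57). Slc12a2 (ENSMUSG00000024597, chr18:57878678-57946821) encodes NKCC1, the sodium-potassium-chloride cotransporter with which shrunken cells regain volume. Its level was 101 CPM for sh-NC, 146 for sh-NC/HG, 91.2 for sh-JAML and 89.6 for sh-JAML/HG, so that sh-NC/HG was the high library. It was 1.45-fold higher in sh-NC/HG than with sh-NC (1.37 to 1.53) and 1.63-fold lower in sh-JAML/HG than in sh-NC/HG (1.54 to 1.73). The low Sgk1 and high Slc12a2 were in sh-NC/HG, the library with the low mitochondrial mRNA sum of 13420 CPM, whose part in these results was not tested. For these genes as for Akr1b3 and Aqp1, the comparisons within high glucose and within each hairpin share libraries and are not independent.

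**Figure D1:**
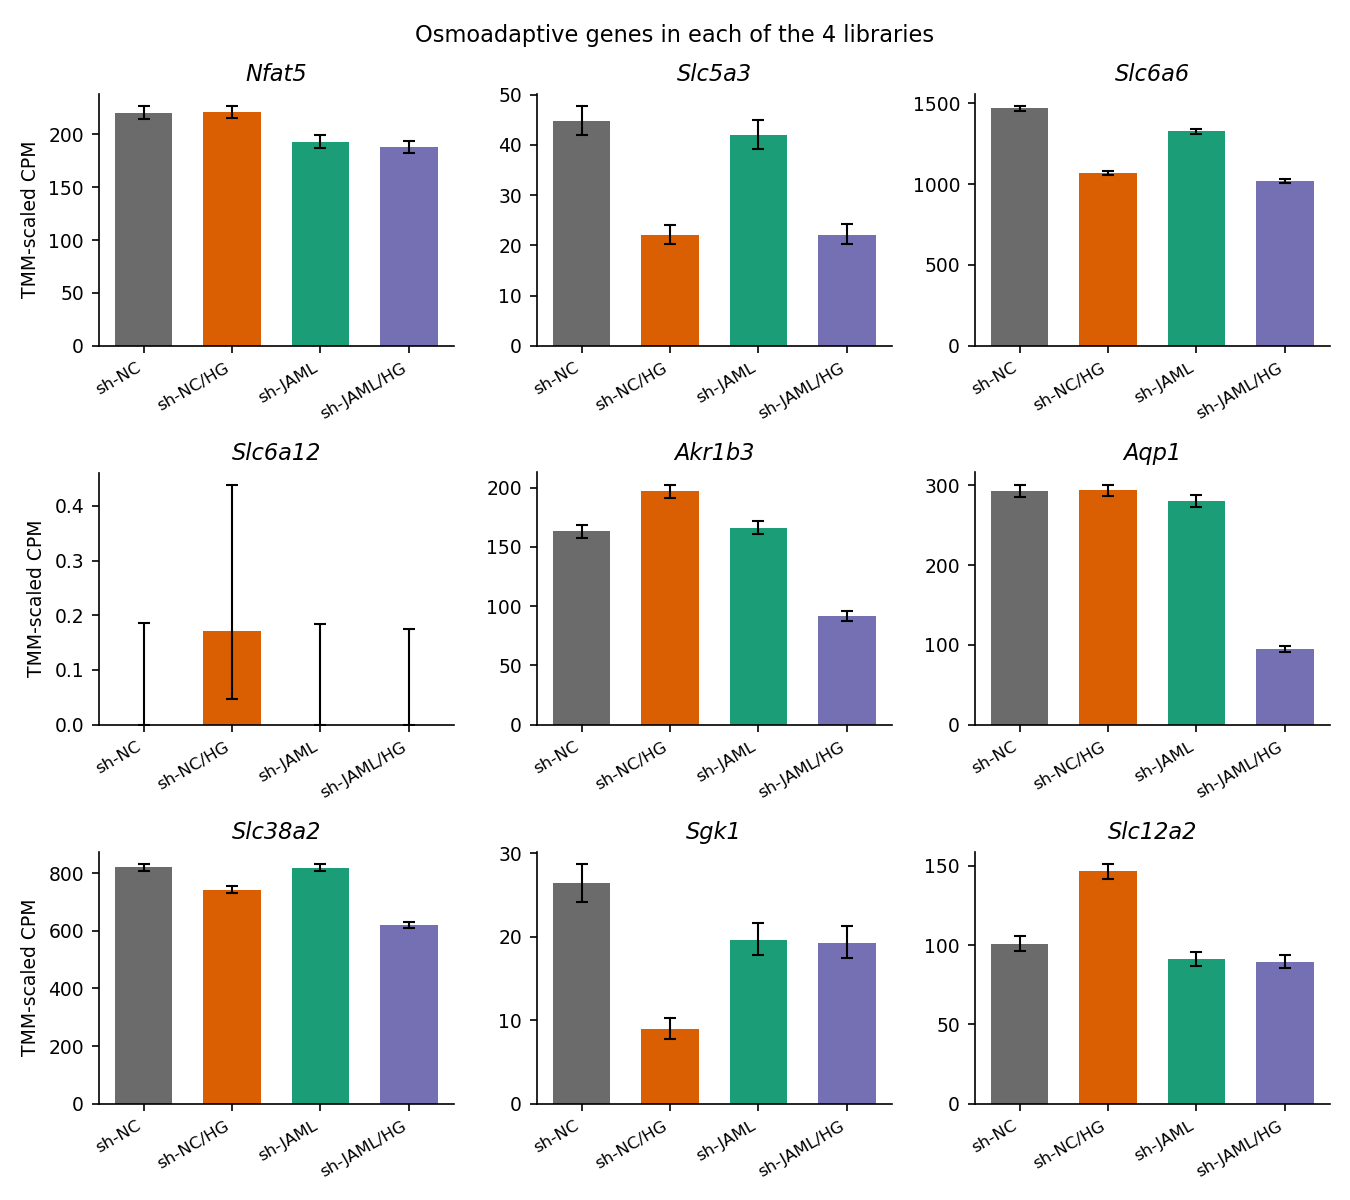
TMM-scaled CPM (linear axis from 0) of the 9 genes in the 4 libraries, 1 bar per library, with exact 95% counting intervals as error bars. Slc5a3 is low in both high glucose libraries, Aqp1 and Akr1b3 are lowest in sh-JAML/HG, and Sgk1 is lowest in sh-NC/HG.

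Set on a scale of CPM per kilobase of the longest annotated coding transcript, the genes covered a wide range. In sh-NC the order of levels was Slc6a6 at 237, Slc38a2 at 176, Akr1b3 at 118, Aqp1 at 111, Nfat5 at 16.5, Slc12a2 at 15.5, Sgk1 at 8.52 and Slc5a3 at 4.10 CPM per kb. Slc6a6 stood above 98.2% of the 12041 coding genes and Slc5a3 above 23.0%. In sh-JAML/HG, Aqp1 was at 36.1 CPM per kb, above 81.3% of coding genes, after 95.4% in each of the other 3 libraries. Akr1b3 was at 66.3 CPM per kb there, above 91.1%. Whether Akr1b3 and Aqp1, or Nfat5 and Slc12a2, differ beyond their spread in sh-NC cannot be said from 1 library. The order depends on the length used: per kilobase of all annotated exons, Akr1b3 came to 19.4 in sh-NC, below Aqp1 at 111 and Slc38a2 at 92.9.

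The number of the 8 genes at least 2-fold apart was read against all 14187 genes. In sh-NC/HG over sh-NC, 0 of the 8 were at least 2-fold higher and 2 lower (Slc5a3 and Sgk1), and 4.65% of all genes were higher and 3.27% lower. In sh-JAML/HG over sh-JAML, 0 were higher and 1 lower (Aqp1), against 1.31% higher and 1.56% lower of all genes. In sh-JAML over sh-NC none of the 8 was 2-fold apart, where 1.31% of all genes were higher and 1.4% lower. In sh-JAML/HG over sh-NC/HG, 1 was higher (Sgk1) and 2 lower (Aqp1 and Akr1b3), against 2.81% and 4.78% of all genes. The median log2 ratios of the 8 genes in these 4 pairs, in the order given, were -0.07, -0.39, -0.12 and -0.25, and the medians of all genes lay between -0.000362 and 0.00215. All 8 ratios were below 0 in sh-JAML/HG over sh-JAML, beside 7106 of all 14187 genes, although those of Nfat5, Sgk1 and Slc12a2 have intervals that include no difference. In sh-NC/HG over sh-NC, 4 lay above and 4 below 0, Nfat5 among them at 0.00, where another scaling changes its sign.

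**Figure D2:**
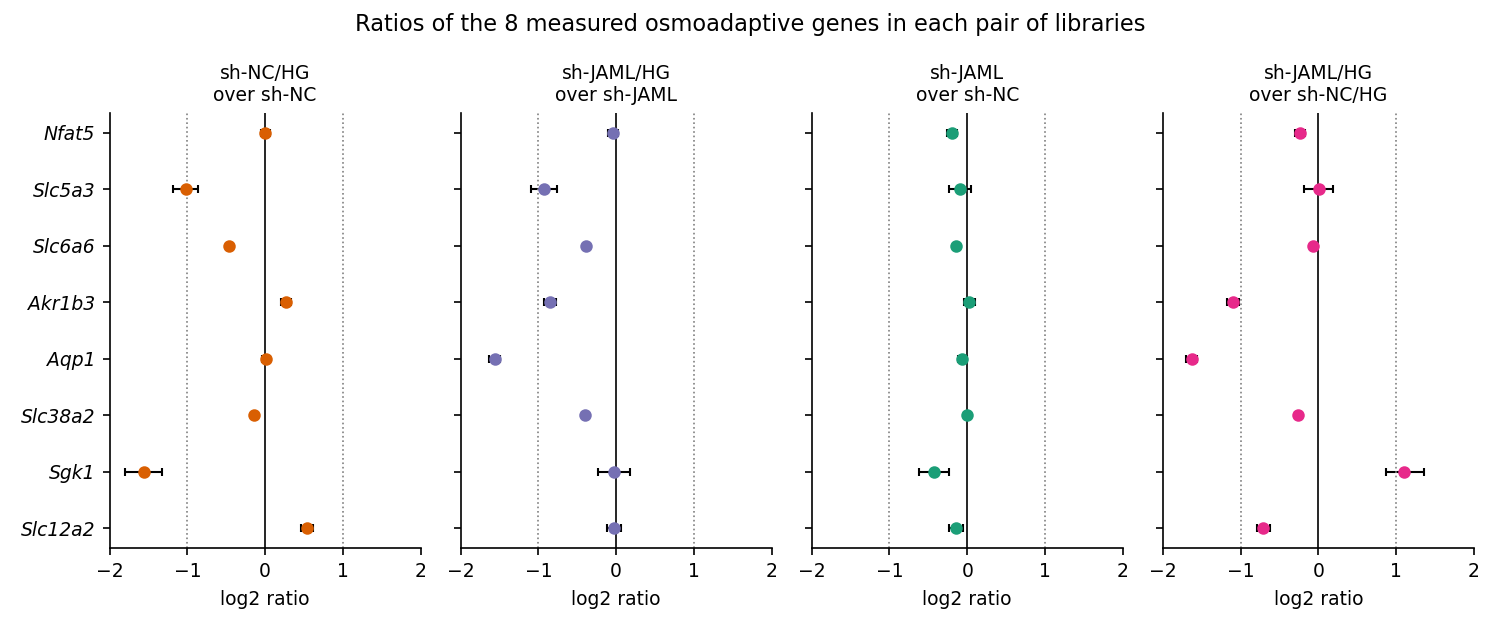
Log2 ratio of the 8 measured genes in the 4 pairs of libraries that differ in 1 factor, with exact 95% counting intervals; dotted lines mark 2-fold. Slc5a3 and Sgk1 lie at or past 2-fold lower in sh-NC/HG over sh-NC, Aqp1 in sh-JAML/HG over sh-JAML, and no gene reaches 2-fold in sh-JAML over sh-NC.

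In the model that adds a glucose term and a hairpin term over all 4 libraries, with 1 residual degree of freedom, none of the 8 genes passed an adjusted p of 0.05 by edgeR's quasi-likelihood test. For the glucose term, edgeR called 1 of 14187 genes, or 0.00705%, and 397 had an unadjusted p under 0.05. DESeq2 called 53 and limma 0. Slc5a3 had a log2 change of -0.97 (SE 0.13), lower in 2 of 2 pairs, with an adjusted p of 0.8127 by edgeR, 0.8713 by limma and 0.001051 by DESeq2. It was the only one of the 8 that any of these tools called for glucose. Slc6a6 had the next smallest edgeR p of the 8, with a log2 change of -0.42 (SE 0.10, lower in 2 of 2 pairs, edgeR adjusted p = 0.9268, DESeq2 adjusted p = 0.7115). For the hairpin term, edgeR called 0 genes (0%), with 400 at an unadjusted p under 0.05, and DESeq2 called 48. The largest hairpin change among the 8 was that of Aqp1, at -0.84 (SE 0.42, lower in 2 of 2 pairs, edgeR adjusted p = 0.9331, DESeq2 adjusted p = 0.7601). The error of this model comes from how far the effect under sh-NC departs from that under sh-JAML, so a gene that is low in 1 library only, such as Aqp1, carries a large error.

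How far the glucose ratio differed between hairpins was largest for Aqp1, at -1.57 on the log2 scale (sh-JAML minus sh-NC), then Sgk1 at 1.53 and Akr1b3 at -1.12. Slc12a2 followed at -0.56 and Slc38a2 at -0.26. Slc5a3, Slc6a6 and Nfat5 lay between -0.04 and 0.10. A difference of at least 1 was seen in 3 of the 8 genes and in 10.1% of all genes, whose median size was 0.269. With 4 libraries an interaction leaves no residual degree of freedom, so these differences have no test.

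**Figure D3:**
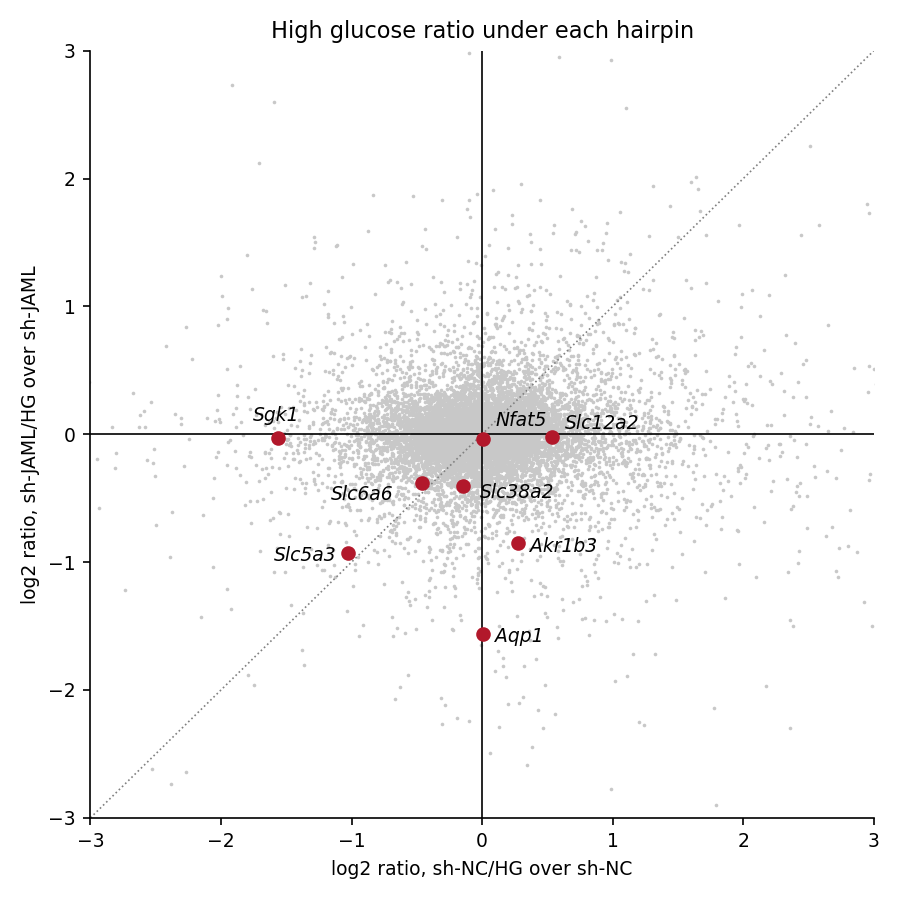
Log2 ratio in high glucose under the Jaml hairpin (vertical axis) against that under the control hairpin (horizontal axis), 1 point per gene past the count minimum, with the 8 genes in red; 128 of 14187 genes lie outside the plotted range of 3 and the dotted line marks equal ratios. Slc5a3 and Slc6a6 lie near the line, while Aqp1 and Sgk1 lie along 1 axis each.

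The other genes of the pathway were taken from lists of 77 genes, of which 61 passed the count minimum. In sh-NC/HG over sh-NC, 2 of the 61 were at least 2-fold higher and 2 lower, beside 4.65% and 3.27% of all genes. In sh-JAML/HG over sh-JAML there were 0 and 2, beside 1.31% and 1.56%, and in sh-JAML over sh-NC 0 and 1, beside 1.31% and 1.4%. Of the 2 lower genes in sh-JAML/HG over sh-JAML, Nos2 was under the floor of 12 counts in both libraries. In sh-JAML/HG over sh-NC/HG there were 1 and 4, beside 2.81% and 4.78%. Their median log2 ratios were 0.03, 0.01, -0.03 and -0.15. The counts per list that follow are mostly over the 4 pairs together. No share of all genes was computed for the pairs together, so these counts only describe the lists. None of the 17 regulators and partners of NFAT5 was 2-fold apart in any of the 4 pairs. Gsk3b, a kinase that restrains NFAT5, was at 141 CPM for sh-NC, 155 for sh-NC/HG, 126 for sh-JAML and 205 for sh-JAML/HG, 1.63-fold higher in the latter than in sh-JAML (1.55 to 1.71). Mapk14, the p38 kinase of the osmotic response, was at 54.7, 40.3, 52.4 and 56.2 CPM, and 1.36-fold lower in sh-NC/HG than with sh-NC (1.24 to 1.48).

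Of the other osmolyte genes, 6 of 9 were measured and none was 2-fold apart. Gdpd5, which breaks down the osmolyte glycerophosphocholine, was at 43.2 CPM for sh-NC, 68.6 for sh-NC/HG, 44.6 for sh-JAML and 51.7 for sh-JAML/HG, higher in high glucose by 1.59-fold (1.46 to 1.73) and 1.16-fold (1.06 to 1.27). Sord, the sorbitol dehydrogenase that follows aldose reductase in the polyol pathway, was at 42.3, 62.4, 57.6 and 55.5 CPM. It was 1.48-fold higher in sh-NC/HG than with sh-NC (1.35 to 1.61) and 1.04-fold lower in sh-JAML/HG than in sh-JAML (0.957 to 1.13).

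All 7 chaperone genes of the osmotic list were measured, and 1 was 2-fold apart in a pair. Hspa1b, an inducible HSP70 gene and a known NFAT5 target, stood at 33.8 CPM for sh-NC, 17.1 for sh-NC/HG, 39.4 for sh-JAML and 17.3 for sh-JAML/HG. Both high glucose libraries were lower, by 1.98-fold (1.75 to 2.25) and 2.28-fold (2.01 to 2.58). Its glucose term was -1.09 (SE 0.15), lower in 2 of 2 pairs, with an adjusted p of 0.8127 by edgeR and 0.0003577 by DESeq2. The near-identical copy Hspa1a, with which reads may be shared, was at 6.56, 3.58, 7.00 and 3.50 CPM. Over the 7 genes the median log2 ratio was 0.00 under the control hairpin, with 3 genes below 0, and -0.27 under the Jaml hairpin, with 6 below 0. Of all 14187 genes, 7065 and 7106 were below 0 in these pairs.

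All 14 genes of ion transport in volume control were measured, and 2 were 2-fold apart. Lrrc8a, the obligatory subunit of the volume-regulated anion channel that releases taurine and other osmolytes from swollen cells, was at 34.8 CPM for sh-NC, 16.9 for sh-NC/HG, 28.5 for sh-JAML and 17.6 for sh-JAML/HG. It was lower in both high glucose libraries, by 2.07-fold (1.82 to 2.34) and 1.62-fold (1.42 to 1.85). It shares 2853 exon bases with Gm28035 on the same strand, so reads may be split between them. Lrrc8d, a further subunit of the channel, was at 73.9 CPM in sh-NC and at 11.9, 11.9 and 12.4 in the other 3 libraries, so it was high in sh-NC alone.

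Of the 11 other aquaporins, 3 were past the count minimum, with 1 at least 2-fold higher in sh-NC/HG over sh-NC and 1 lower in sh-JAML/HG over sh-NC/HG. Aqp7, which also carries glycerol, was at 10.1, 6.27, 13.2 and 12 CPM in sh-NC, sh-NC/HG, sh-JAML and sh-JAML/HG. Aqp11 was at 0.440, 1.10, 0.361 and 0.615 CPM, 2.47-fold higher in sh-NC/HG than with sh-NC (1.12 to 5.97). Aqp5 was at 1.19, 1.04, 0.648 and 0.508 CPM, 2.02-fold lower in sh-JAML/HG than in sh-NC/HG (0.933 to 4.47), an interval that includes no difference. Aqp9 and Aqp12 were at a count of 0 throughout.

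Of the amino acid transport genes, 5 of 6 were measured and none was 2-fold apart. Slc38a1, a close relative of Slc38a2, was at 59.0 CPM for sh-NC, 74.8 for sh-NC/HG, 59.1 for sh-JAML and 59.3 for sh-JAML/HG. Slc3a2, the heavy chain of several exchangers, was at 289, 227, 249.7 and 267 CPM. Of the other SGK kinases, Sgk2 was at 0.767, 0.686, 1.30 and 1.57 CPM and 2.27-fold higher in sh-JAML/HG than in sh-NC/HG (1.22 to 4.43). The calcium-regulated NFAT genes, of which 3 of 4 were measured, were not 2-fold apart, with Nfatc1 between 23.5 and 31.3 CPM and Nfatc4 between 1.43 and 1.82.

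Of 6 inflammatory and growth genes that NFAT5 is reported to activate, 3 were measured, and Ccl2 and S100a4 were higher in sh-NC/HG than with sh-NC and lower in sh-JAML/HG than in sh-JAML. The chemokine gene Ccl2 was at 105 CPM for sh-NC, 188 for sh-NC/HG, 69.1 for sh-JAML and 52.4 for sh-JAML/HG. It was 1.78-fold higher (1.69 to 1.88) under the control hairpin and 1.32-fold lower (1.22 to 1.43) under the Jaml hairpin, and its hairpin term was -1.22 (SE 0.34), lower in 2 of 2 pairs, with an adjusted p of 0.9331 by edgeR and 0.01971 by DESeq2. S100a4, a calcium-binding protein gene, was at 74.6, 145, 58.0 and 35.1 CPM, 1.95-fold higher (1.83 to 2.07) under the control hairpin and 1.65-fold lower (1.51 to 1.82) under the Jaml hairpin. It shares 302 exon bases with Gm42674 on the same strand, so reads may be split between them. In sh-JAML/HG, Ccl2 was 3.58-fold lower (3.35 to 3.83) and S100a4 4.14-fold lower (3.83 to 4.49) than in sh-NC/HG. The nitric oxide synthase gene Nos2 had counts of 5, 583, 5 and 0, so it was seen above the floor of 12 counts in sh-NC/HG alone. The same library held the highest Akr1b3 and Slc12a2 of the 4 and the lowest Sgk1. Of the 8 genes, 4 lay above and 4 below 0 in sh-NC/HG over sh-NC.

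**Figure D4:**
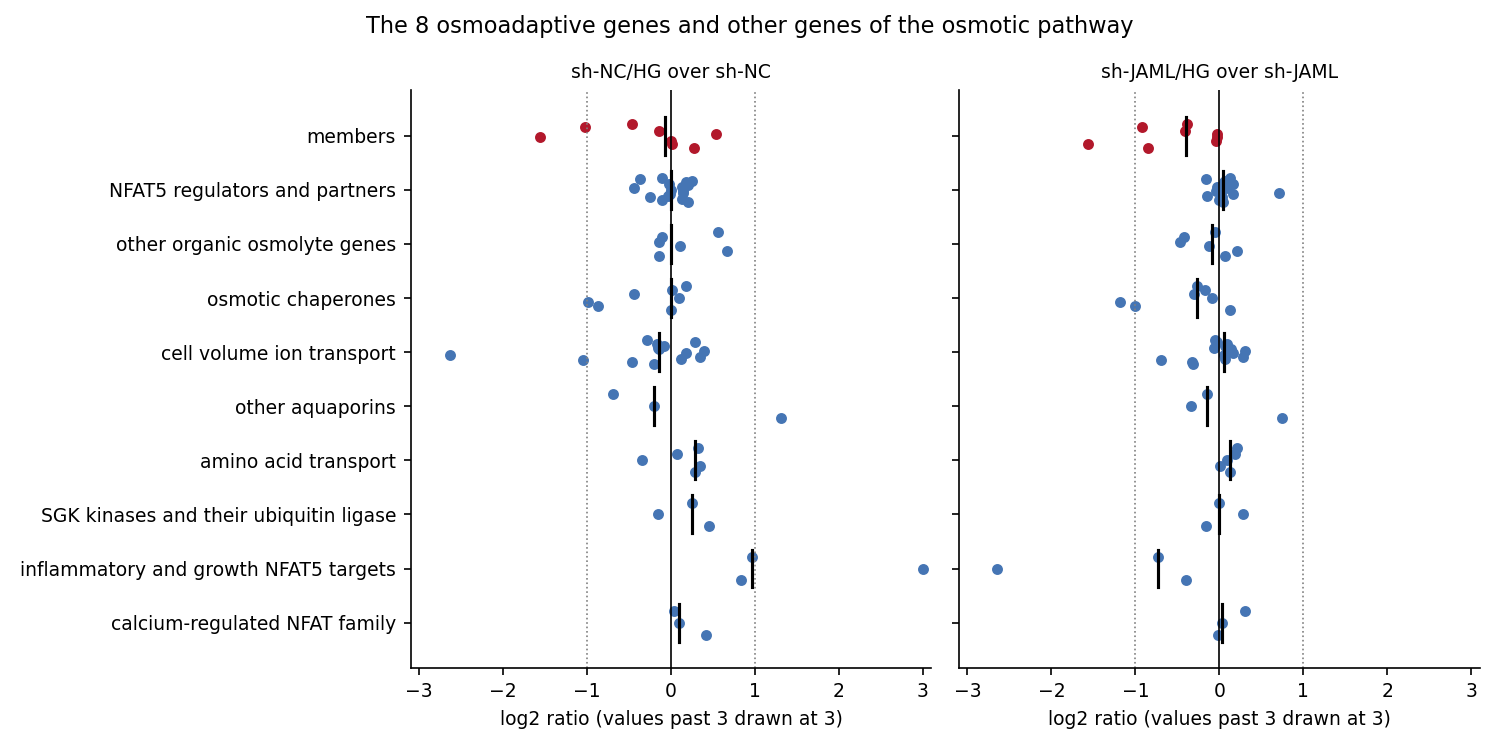
Log2 ratios of the 8 genes (red, row labelled members) and of 9 lists of other pathway genes (blue, 1 point per gene past the count minimum, values past 3 drawn at 3) in high glucose under each hairpin; vertical bars mark medians and dotted lines 2-fold. The 8 genes have medians of -0.07 and -0.39, and the inflammatory list lies above 0 on the left and below 0 on the right.

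Of the 8 measured genes, Slc6a6, Akr1b3 and Aqp1 lie on chromosome 6, which holds 4.82% of the genes past the count minimum. The neighbours of Aqp1 and Akr1b3 were read within 1 Mb, a window chosen after the values were seen. In sh-JAML/HG over sh-JAML, 1 of 9 neighbours of Aqp1 and 1 of 15 of Akr1b3 were at least 2-fold lower, beside 1.56% of all genes. Around Aqp1, 9 genes were measured, with a median log2 ratio of -0.07 in sh-JAML/HG over sh-JAML. Inmt, an indolethylamine methyltransferase gene at chr6:55170626-55175043, was at 682 CPM for sh-NC, 1042 for sh-NC/HG, 909 for sh-JAML and 373 for sh-JAML/HG, 2.44-fold lower in the last than in sh-JAML. Around Akr1b3, 15 genes were measured, with a median of 0.06. The gene at least 2-fold lower was the lincRNA Gm13855, at 0.277, 1.47, 0.797 and 0.284 CPM, close to the floor in sh-NC and sh-JAML/HG. Like Akr1b3, it was highest in sh-NC/HG and lower in sh-JAML/HG than in sh-JAML. Unlike Akr1b3, it was about as low in sh-NC as in sh-JAML/HG. The median over the 684 genes of chromosome 6 was 0.00 in sh-JAML/HG over sh-JAML. In the pairs with sh-NC/HG it was further from 0, at -0.163 in sh-NC/HG over sh-NC and 0.225 in sh-JAML/HG over sh-NC/HG. In these 2 pairs the medians were -0.284 and 0.375 for the neighbours of Aqp1, and -0.0719 and 0.0955 for those of Akr1b3. The part of this shift in the ratios of the chromosome 6 genes was not tested.

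**Figure D5:**
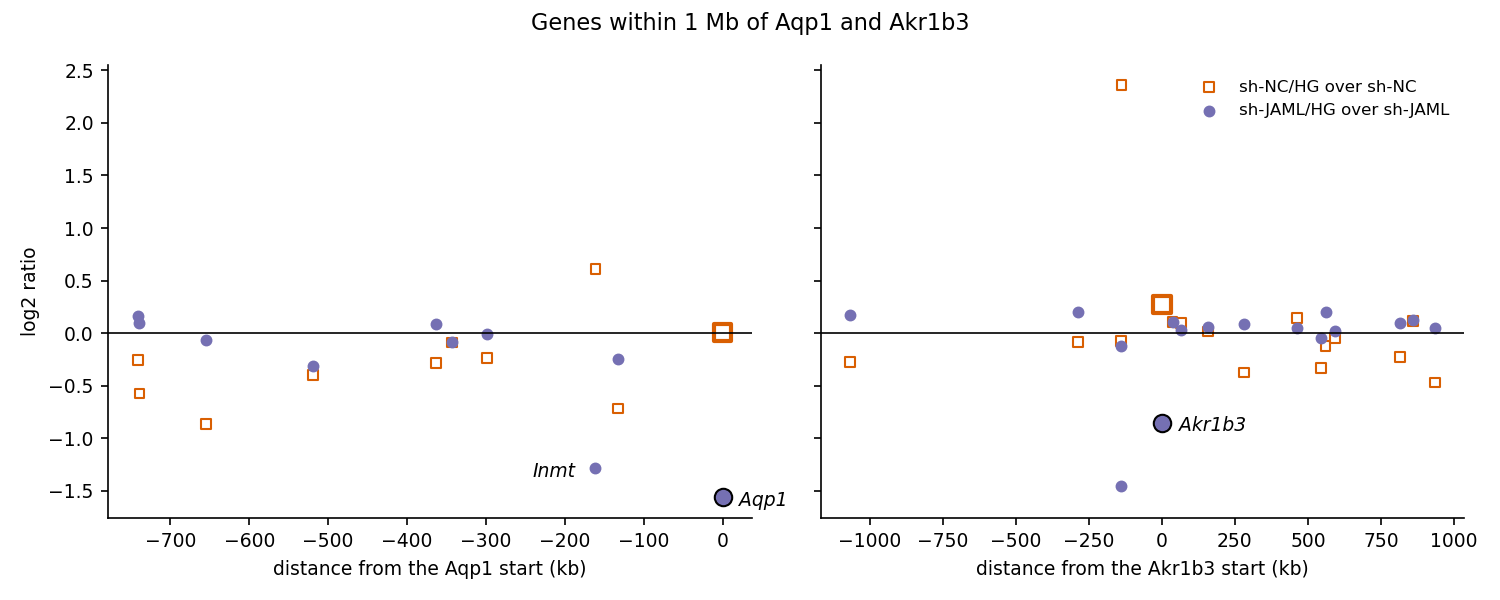
Log2 ratios of the measured genes within 1 Mb of Aqp1 (left) and Akr1b3 (right) against the distance of their start from that of the named gene in kb, for high glucose under the control hairpin (open squares) and the Jaml hairpin (filled circles); distances past 1000 kb belong to genes whose body reaches into the window. Inmt is the 1 neighbour of Aqp1 at least 2-fold lower under the Jaml hairpin.

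The genes whose pattern over the 4 libraries was most like that of a given gene were taken by Euclidean distance of centred log2 CPM among the 12977 genes whose mean count reached 100. With 4 points per gene, likeness is a description only. Nearest to Slc5a3 were Pmaip1 (distance 0.07), Mxi1 (0.08) and Hspa1a (0.14). Pmaip1, which encodes the p53 target NOXA, was at 100.2, 48.6, 93.3 and 51.9 CPM in sh-NC, sh-NC/HG, sh-JAML and sh-JAML/HG. Mxi1, a MAX-interacting repressor, was at 81.7, 41.6, 82.8 and 40.9 CPM. Both were low in the high glucose libraries, as Slc5a3 was. Nearest to Aqp1 were the processed pseudogene Gm6344 (0.13), Il18rap (0.24) and Wrb (0.24). Wrb, a receptor subunit for tail-anchored protein insertion, was at 27.7, 30.9, 28.1 and 8.0 CPM, low in sh-JAML/HG alone. Gm6344 shares 86.1% of its exon bases with Uimc1 on the opposite strand, so its value is uncertain. Nearest to Akr1b3 were the lincRNA Gm8066 (0.13), Sec16b (0.16) and Plekhs1 (0.16), and Sec16b, a gene of endoplasmic reticulum exit sites, was at 5.48, 7.67, 5.79 and 3.38 CPM.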

How the data were processed

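RNA-seq libraries of the mouse podocyte line MPC were used, 1 per group. The authors deposited estimated counts by Ensembl gene, with no scaling between libraries. The submitters' processing notes name CASAVA 1.8, TopHat2 2.0.6 and mm10; a counting tool is not given in the sources used here, nor is an annotation. The columns of the 2 control hairpin libraries do not name it and were matched to groups by their names. The design text mentions 4 treated and 4 untreated samples, and 4 libraries were analysed here. The counts are whole numbers that pile up at multiples of 4 (1.51 to 2.1 times the neighbouring even values), so 4 were taken as 1 fragment for intervals and for the floor of 3 fragments, or 12 counts. Reads have no molecular identifiers, so intervals and floors cover counting error only. Of 56393 genes, 27916 had no counts, and 1 line that names no gene was left out. Symbols and positions came from GENCODE M21, which matched 55480 genes; without stated strand use in the counting, reads of overlapping genes cannot be told apart.

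TMM factors were computed with edgeR 4.0.16 in R 4.3.3 from genes whose mean count reached 50, and a prior count of 1 entered the log2 ratios. Pairs of libraries were described by a ratio of at least 2-fold, with exact 95% intervals (Clopper-Pearson, conditional on the summed fragments of both libraries), and have no test. The additive model (hairpin and glucose) was fitted over 14187 genes with edgeR's quasi-likelihood test and Benjamini-Hochberg adjustment at 0.05. DESeq2 1.42.0 and limma 3.58.1 (voom) were alternatives. A check on simulated data came first, with glucose effects equal under both hairpins. Its dispersion (variation beyond counting error) was smaller than the common value of 0.0483 in these data. The check therefore does not show how the fit behaves on these data. Other scalings, prior counts, count minimums and folds were tried. Python 3.11.15, numpy 2.4.6, pandas 2.3.3, scipy 1.17.1 and matplotlib 3.10.9 did the rest. The text names the 9 genes and the 3 nearest patterns of Aqp1, Slc5a3 and Akr1b3. It also names list genes at least 2-fold apart in any pair, or otherwise up to 2 per list by size. Aqp7, Mrps6, Cdh16, Lrp2, Cubn and the neighbouring genes were named after their values were seen. The genes and lists were chosen with earlier results of these data known, so they are no independent support for any pattern. The values of 1 listed marker are not reported here.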

Additional observations from a re-analysis of the deposited data

Results flagged for a closer look

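The glucose ratio of Akr1b3 ran in opposite directions under the hairpins, higher in sh-NC/HG than with sh-NC and lower in sh-JAML/HG than in sh-JAML, a difference of -1.125 on the log2 scale (sh-JAML minus sh-NC). The hairpin ratio of Sgk1 also changed direction, lower in sh-JAML than in sh-NC and higher in sh-JAML/HG than in sh-NC/HG, a difference of 1.534 on the log2 scale (high glucose minus no added glucose). A difference of at least this size was found in 1189 of 14187 genes for Akr1b3 and in 639 for Sgk1, each gene itself included. The share of all genes whose ratio changes direction in this way is not given here. Neither difference was tested, since each group has 1 library.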

How the results depend on the processing

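The count of genes called for glucose was 1 with edgeR, 53 with DESeq2, 0 with limma and 0 in edgeR without a count minimum; that for the hairpin was 0 with edgeR and 48 with DESeq2. The cause was not tested. Slc5a3 was called for glucose by DESeq2 alone. At a fold of 1.5 in place of 2, 3 of the 8 genes were apart in sh-JAML/HG over sh-JAML, in place of 1; the lower threshold alone makes this change. Other scalings, among them TMM from the 2 libraries of a pair and TMM from genes with at most 10% shared exon bases, both chosen after seeing the data, and other prior counts kept the number of genes 2-fold apart in each of the 4 pairs. The sign of a ratio changed with the scaling only for Nfat5 in sh-NC/HG over sh-NC and Slc38a2 in sh-JAML over sh-NC, both near 0. Summing Slc5a3 with Mrps6 took its log2 ratios to -0.57 under both hairpins. Leaving out a library was not run, since it leaves no residual degree of freedom. The labels give no replicate numbers to block on; the additive model already compares glucose levels within each hairpin.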
